A study of Mus musculus with 18 samples.

Results

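This comparison sets the kidneys of diabetic nephropathy (DN) mice treated with germacrone against those of untreated DN mice, by small RNA sequencing. It takes 12 of the 18 libraries of the series, 6 treated and 6 DN, and the 735 mouse-named microRNAs (miRNAs) among the 902 names of the count table, with 1 row kept for each name. Both groups are of strain C57BL/KsJ. DN mice received 0.9% saline and treated mice received germacrone at 10 mg/kg/day. The control mice of the series are of strain C57BL/6J and are not part of this comparison. The sources used here give neither the cause of the diabetes, the age of the mice nor the route and length of treatment. They also do not say that each library comes from its own animal, so a p-value covers only the spread among these samples, which may be technical. Germacrone is a sesquiterpene of the essential oil of Curcuma plants, studied for anti-inflammatory effects. Whole kidney is bulk tissue, in which fewer cells of a type and less RNA per cell cannot be told apart.

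A miRNA is a short RNA that guides an Argonaute protein to messenger RNAs, mostly through base pairing of its seed, bases 2 to 8 from the 5′ end, and lowers their stability and translation. Each hairpin precursor can give an arm from its 5′ side (5p) and one from its 3′ side (3p), and miRNAs with the same seed share most predicted targets. In diabetic kidney disease the best studied miRNAs are those tied to fibrosis, such as miR-21a-5p, to epithelial identity, such as the miR-200 and miR-192 families, and to inflammation, such as miR-146a-5p, miR-155-5p and miR-223-3p.

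The mature sequences of the miRNAs on which the results turn are given here 5′ to 3′ from RefSeq (GRCm38.p6), with the seed in capitals. RefSeq held a single mature sequence for 345 of the 406 mouse miRNAs tested. The first set had higher fitted levels in treated kidneys, but none of these differences passed an adjusted p of 0.05 by edgeR with all libraries. Both arms of miR-335 and miR-708-5p had the smallest p-values in that direction with all libraries, miR-182-5p, miR-96-5p, miR-17-5p and miR-20a-5p were among the smallest only without DN 2, a DN library that stood apart, and the difference of miR-34a-5p depended on 2 DN libraries.
miR-34a-5p: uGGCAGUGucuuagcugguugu
miR-335-5p: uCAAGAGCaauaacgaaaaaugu
miR-335-3p: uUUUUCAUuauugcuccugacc
miR-708-5p: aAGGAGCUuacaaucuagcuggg
miR-182-5p: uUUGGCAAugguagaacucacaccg
miR-96-5p: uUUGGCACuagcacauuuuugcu
miR-17-5p: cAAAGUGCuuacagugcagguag
miR-20a-5p: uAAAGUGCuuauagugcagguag

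The second set had the smallest p-values for lower levels in treated kidneys once DN 2 was left out.
miR-1968-5p: uGCAGCUGuuaaggaugguggacu
miR-1981-5p: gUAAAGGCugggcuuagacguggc
miR-1981-3p: cAUCUAACccuggccuuugac
miR-1843b-3p: cCGAUCGUuccccuccauac
miR-149-5p: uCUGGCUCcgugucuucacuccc
miR-185-3p: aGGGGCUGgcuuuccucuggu
miR-455-3p: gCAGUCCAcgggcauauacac

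The third set holds 2 leukocyte miRNAs whose difference came from DN 2, and 3 of the most abundant kidney miRNAs, which share a seed.
miR-223-3p: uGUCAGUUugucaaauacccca
miR-155-5p: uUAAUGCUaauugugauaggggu
miR-30a-5p: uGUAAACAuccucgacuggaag
miR-30c-5p: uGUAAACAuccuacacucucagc
miR-30e-5p: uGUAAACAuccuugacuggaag

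Among these 20 sequences, miR-17-5p and miR-20a-5p share the seed AAAGUGC and the 3 miR-30 members share GUAAACA, while miR-182-5p (UUGGCAA) and miR-96-5p (UUGGCAC) have different seeds by this definition. In RefSeq on GRCm38.p6, miR-34a-5p lies at chr4:150068473-150068494 on the plus strand with no GENCODE vM21 host gene on its strand. Both arms of miR-335 lie in a Mest intron (Mest is an imprinted gene), at chr6:30741314-30741336 on the plus strand and chr6:30741354-30741375 on the plus strand. The mature arm miR-708-5p lies in an intron of Tenm4 at chr7:96249450-96249472 on the plus strand. The neighbours miR-182-5p and miR-96-5p lie at chr6:30165962-30165986 on the minus strand and chr6:30169506-30169528 on the minus strand. Of the second set, miR-1968-5p lies in an intron of Grtp1 (chr8:13189068-13189091 on the minus strand), both arms of miR-1981 in Marc2 (miR-1981-5p at chr1:184822465-184822488 on the minus strand) and miR-1843b-3p in Cop1 (chr1:159340400-159340419 on the plus strand). The others are also intronic: miR-149-5p in Gpc1 (chr1:92850381-92850403 on the plus strand), miR-185-3p in Tango2 (chr16:18327405-18327425 on the minus strand) and miR-455-3p in the collagen gene Col27a1 (chr4:63256904-63256924 on the plus strand).

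DN 2 and DN 3 stood apart from the other 10 libraries. Totals of named counts ran from 3639790 to 7236246 in DN and from 3653801 to 5969381 in treated libraries. Of the 406 tested miRNAs, 108 had their highest level of the 12 libraries in DN 2 and 104 their lowest, and DN 3 held the highest level of 104 and the lowest of 86. The bars of extreme levels by library are tall for DN 2 and DN 3 only. In each other library the highest level was found for 5 to 32 and the lowest for 8 to 45. Levels are given as CPM, counts scaled to a common library size. Log2 CPM of DN 2 had a median correlation of 0.891 with the rest of its group. That of DN 3 was 0.931, and the other 10 libraries reached 0.964 to 0.981. A single miRNA, miR-21a-5p, made up 26.4% of the mouse counts in DN 2, against 6.65% to 13.8% for the most abundant miRNA of each other library. The median standard deviation (SD) of log2 CPM was 0.649 in DN, 0.487 without DN 2, 0.296 without DN 2 and DN 3, and 0.331 in treated kidneys. The differences are therefore given with and without DN 2 and, for some, also without DN 3.

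**Figure D1:**
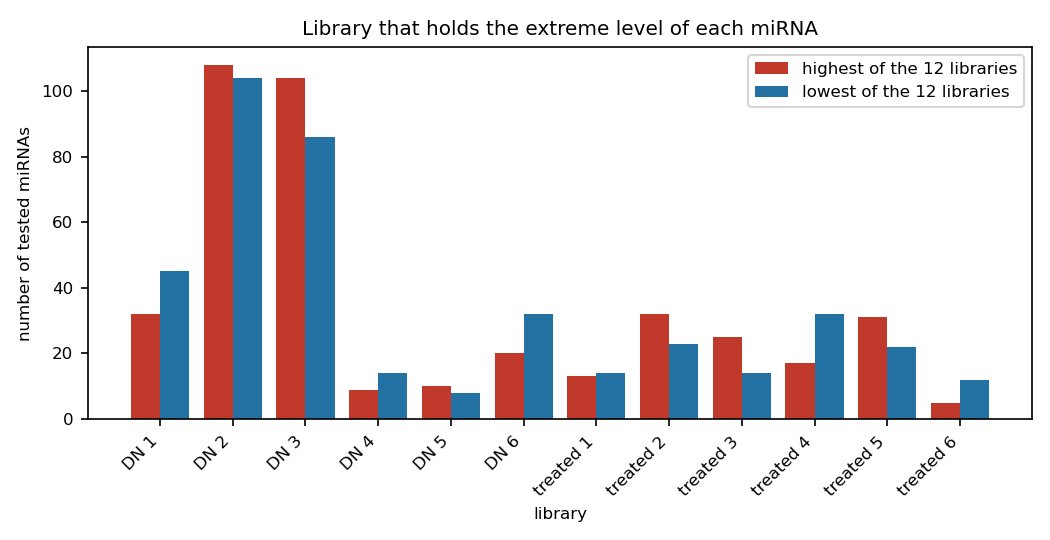
Number of the 406 tested miRNAs (y axis) that had their highest (red bars) or lowest (blue bars) log2 CPM of all 12 libraries in each library (x axis). DN 2 held 108 highest and 104 lowest levels and DN 3 held 104 and 86, against at most 45 in any other library.

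With all 12 libraries, 0 of 465 tested names (0%) passed an adjusted p of 0.05 by edgeR's quasi-likelihood test with Benjamini-Hochberg adjustment, and 0 of 465 (0%) had groups that did not overlap. At an unadjusted p under 0.05, 4 names were higher in treated kidneys (0.86%) and 8 lower (1.72%). Of these, 4 higher and 7 lower were among the 406 mouse miRNAs, where 20.3 would be at that level if p-values were uniform. DESeq2 called 0 and limma-voom with sample weights called 1, miR-34a-5p. Without DN 2, edgeR called 0 of 470 names (0%), 0 of 470 had groups that did not overlap (0%), 4 were higher at an unadjusted p under 0.05 (0.851%) and 9 lower (1.91%), and DESeq2 and limma-voom called 0. The smallest adjusted p of a mouse miRNA was 0.761 with all 12 libraries and 0.778 without DN 2.

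The fold changes were small for most miRNAs. The log2 fold change of treated against DN kidneys (log2FC) lay between -0.98 and 0.48 for the middle 90% of mouse miRNAs, with a median of -0.082 and 165 of 406 (40.6%) higher. Without DN 2 the middle 90% lay between -0.77 and 0.45, with a median of -0.070 and 168 of 410 (41%) higher. A change of more than 2-fold was fitted for 1 higher and 20 lower miRNAs with all libraries, and for 3 higher and 7 lower without DN 2. The 95% interval of the log2FC lay inside -1 to 1, and so excluded a 2-fold change, for 218 of 406 miRNAs with all libraries and 258 of 410 without DN 2. Of miRNAs at a mean of 100 CPM or more, 146 of 198 and, without DN 2, 163 of 195 had such an interval. Below 100 CPM the numbers were 72 of 208 and 95 of 215. For the others a 2-fold change was not excluded at this depth and spread. The plot of precision against abundance shows both fits side by side.

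**Figure D2:**
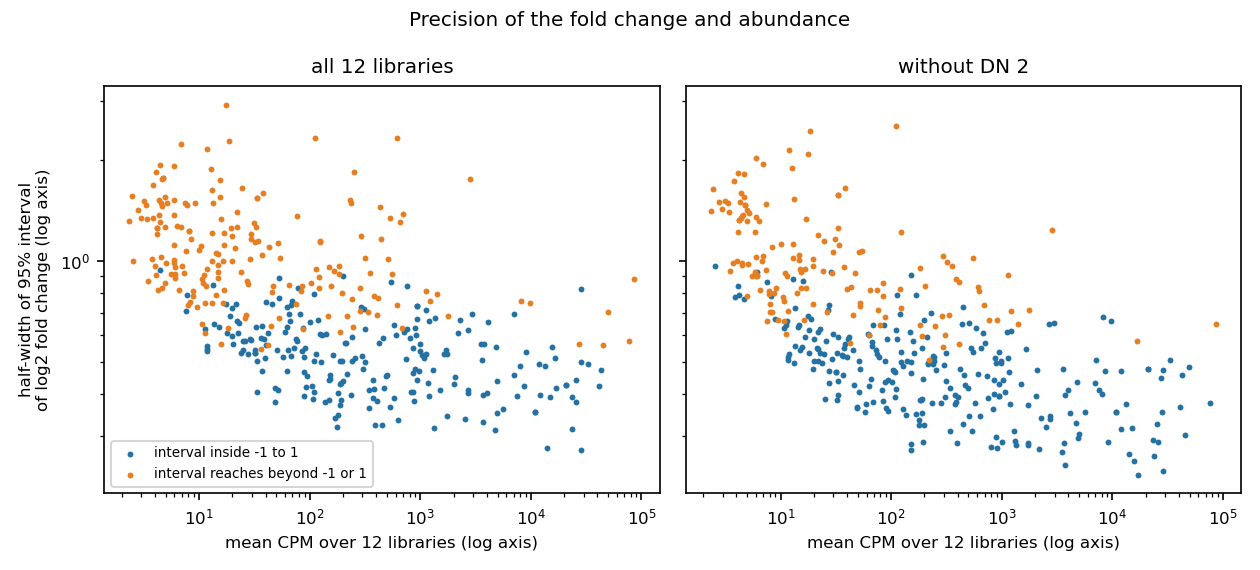
Half-width of the 95% interval of the log2 fold change (y axis, log) against mean CPM over the 12 libraries (x axis, log) for each of the 406 tested miRNAs, with all libraries (left) and without DN 2 (right). Intervals narrow with abundance, and the number inside -1 to 1 (blue) is larger in the right panel.

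The leukocyte miRNAs miR-147-3p and miR-223-3p had the most negative fold changes of the 406 with all libraries, and these rested on DN 2. miR-223-3p, abundant in neutrophils and other myeloid cells, was at 100.2, 6192, 158, 90.2, 81.2 and 49.2 CPM in DN 1 to 6 and 73.8, 119, 167, 69.1, 66.3 and 220.5 in treated 1 to 6. DN 2 lay far above every other library and the remaining 11 overlapped. The log2FC was -3.22 (SE 1.09, adjusted p = 0.761) and 0.27 without DN 2 (SE 0.388). miR-150-5p, a miRNA of mature lymphocytes, was at 139, 1616, 150.4, 82.8, 114 and 92.4 CPM in DN 1 to 6 and 83.2, 147, 138, 95.3, 127 and 79.6 in treated 1 to 6, and its log2FC was -1.71, or -0.11 without DN 2 (SE 0.227). miR-155-5p, induced in activated immune cells, was at 65.0, 1535, 240.0, 82.3, 106 and 77.6 CPM in DN 1 to 6 and 116, 88.3, 145, 105, 102 and 111 in treated 1 to 6. DN 2 was again highest and DN 3 next, and its log2FC was -1.66, or -0.11 without DN 2 (SE 0.323). miR-147-3p, which macrophages switch on after Toll-like receptor stimulation, was at 181 CPM in DN 2, against 0 to 6.21 in DN 1 and 3 to 6 and 0 to 6.61 in treated kidneys. Its log2FC was -3.34, or 0.30 without DN 2 (SE 0.964).

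Among the remaining leukocyte markers, miR-146a-5p was far higher in 1 treated library than in the others. miR-146a-5p, an NF-kB target gene product that dampens Toll-like receptor signalling, was at 741, 14034, 1443, 1156, 1028 and 957 CPM in DN 1 to 6 and 986, 950.4, 1862, 1131, 1288 and 8513 in treated 1 to 6. Treated 6 was the highest treated library, and DN 2 was the only library above it. The other treated libraries overlapped with the other DN libraries. The log2FC was -0.39 and 1.20 without DN 2 (SE 0.573). miR-342-3p, a miRNA of blood cells, was at 287, 3397, 516, 291, 355 and 277 CPM in DN 1 to 6 and 346, 449.5, 504, 327, 410.4 and 699 in treated 1 to 6, with a log2FC of -0.91 (0.35 without DN 2). Over the 9 tested of 10 leukocyte miRNAs, 0 were higher and the median log2FC was -1.66 with all libraries, against 7 of 9 and 0.30 without DN 2. With limma-voom, which weights each library, the list had 8 of 9 higher, median 0.30, with DN 2 kept. Their summed level was 34287 CPM in DN 2, 10552 in treated 6, 1949 to 2921 in the other DN libraries and 2283 to 3940 in the other treated ones. Of these sums, miR-146a-5p alone made up 8513 CPM in treated 6 and 14034 CPM in DN 2. No member was at 0 in all libraries. In the plot of both fits, leukocyte members lie far from the line of equal values. The part of leukocyte content in other differences that rest on DN 2 was not tested.

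**Figure D3:**
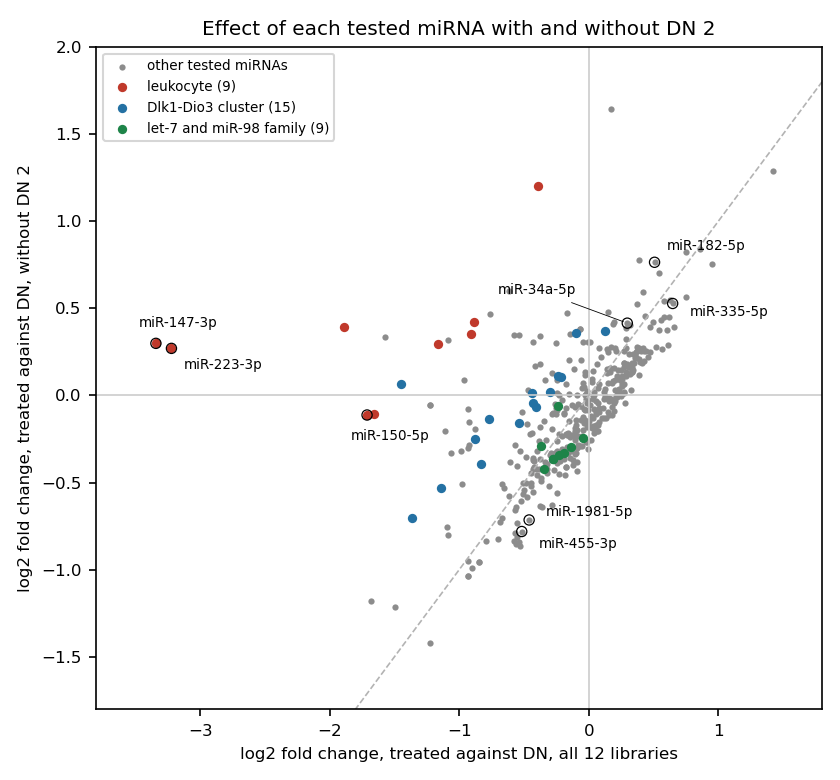
Log2 fold change of treated against DN kidneys for each tested miRNA with all 12 libraries (x axis) and without DN 2 (y axis). The dashed line marks equal values. Leukocyte miRNAs (red) lie below 0 with all libraries and 7 of 9 lie above 0 without DN 2, while the let-7 family (green) lies below 0 on both axes.

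Higher levels in treated kidneys that did not come from DN 2 were found for both arms of miR-335, a hairpin processed from the Mest intron and reported to affect mesenchymal and metabolic genes. miR-335-5p was at 225, 111, 57.8, 147, 159 and 187 CPM in DN 1 to 6 and 213, 321, 246, 257, 171 and 183 in treated 1 to 6. All 6 treated libraries lay above the DN median, and DN 3 was the lowest of the 12. Its log2FC was 0.65 (SE 0.286, 95% interval 0.033 to 1.26, adjusted p = 0.761), 0.53 without DN 2 and 0.31 without DN 2 and DN 3. miR-335-3p was at 18.7, 21.4, 23.3, 38.3, 38.2 and 36.7 CPM in DN 1 to 6 and 46.4, 54.7, 43.9, 32.8, 31.6 and 51.0 in treated 1 to 6. DN 1 to 3 were the 3 lowest and the groups overlapped, with a log2FC of 0.56 (0.43 without DN 2). miR-708-5p, an intronic miRNA of Tenm4, was at 39.1, 35.9, 31.8, 31.9, 30.9 and 34.2 CPM in DN 1 to 6 and 25.9, 71.8, 51.6, 46.7, 75.4 and 34.1 in treated 1 to 6. Its DN libraries lay close together, 4 treated libraries lay above all of them and treated 1 was the lowest of the 12. Its log2FC was 0.58 (SE 0.260) and 0.54 without DN 2 (SE 0.263, adjusted p = 0.778).

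The other miRNAs of smallest p among those higher with all libraries differed by less than 1.5-fold. miR-125b-2-3p, the minor arm of a miRNA of the Mir99ahg transcript, ranged over 127 to 200.3 CPM in DN and 177 to 262 in treated kidneys, with a log2FC of 0.37 (0.26 without DN 2). miR-22-3p, a miRNA of muscle and metabolic tissue, ranged over 7042 to 12986 and 11330 to 19206 CPM, with DN 2 lowest and treated 2 highest, and a log2FC of 0.36 (0.21 without DN 2). miR-322-3p, of an X-linked cluster that restrains the cell cycle, ranged over 407 to 672 and 465 to 789.7 CPM (log2FC 0.34, or 0.24 without DN 2). miR-9-5p, best known from neural progenitors, ranged over 75.9 to 141 CPM in DN. It was at 76.3 CPM in treated 6 and 142 to 199.9 in the other treated libraries, so 5 of 6 treated libraries lay above all DN libraries (log2FC 0.43, or 0.46 without DN 2). Each of these 4 had an adjusted p of 0.761 with all libraries and 0.778 without DN 2.

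Lower levels in treated kidneys that did not need DN 2 were found for miR-1843b-3p and miR-138-5p. miR-1843b-3p, of the Cop1 intron, was at 35, 35.5, 41.9, 37.2, 38.2 and 43.4 CPM in DN 1 to 6 and 26.7, 30.3, 23.5, 30.5, 22.9 and 35.5 in treated 1 to 6. Of the treated libraries only treated 6 overlapped with DN, and the log2FC of miR-1843b-3p was -0.45 (SE 0.189) and -0.52 without DN 2 (SE 0.184, 95% interval -0.92 to -0.12, adjusted p = 0.778). miR-138-5p, enriched in neurons and also linked to hypoxia signalling, was at 18.7, 17.7, 15.9, 10.8, 10.1 and 8.78 CPM in DN 1 to 6 and 9.22, 9.23, 6.32, 9.22, 9.71 and 9.69 in treated 1 to 6. DN 1 to 5 lay above all treated libraries and DN 6 lay among them, with a log2FC of -0.61 (-0.58 without DN 2). miR-489-3p, of the Calcr intron, was at 38.9 CPM in DN 2, 6.70 to 16.0 in the other DN libraries and 4.75 to 12.9 in treated ones (log2FC -0.98, or -0.51 without DN 2).

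Without DN 2, the 7 miRNAs of smallest p among those lower in treated kidneys were miR-1968-5p, both arms of miR-1981, miR-1843b-3p, miR-149-5p, miR-185-3p and miR-455-3p, and 5 of them had their lowest level of the 12 libraries in DN 2. miR-1968-5p, of an intron of the TBC domain gene Grtp1, was at 39.4, 1.06, 49.6, 42.0, 43.0 and 34.6 CPM in DN 1 to 6 and 27.9, 24.7, 36.1, 32.0, 28.7 and 27.2 in treated 1 to 6. The 5 DN libraries other than DN 2 overlapped with treated 3 alone. Its log2FC was -0.56 without DN 2 (SE 0.178, 95% interval -0.95 to -0.18, unadjusted p = 0.00753, adjusted p = 0.778) and -0.25 with it. miR-1981-5p, of an intron of the mitochondrial reductase gene Marc2, was at 256, 76.0, 473, 259, 262 and 190.1 CPM in DN 1 to 6 and 203, 200.4, 180.0, 162, 144 and 212 in treated 1 to 6. DN 3 was the highest library and DN 2 the lowest, and DN 6 lay among the treated libraries. The log2FC was -0.71 without DN 2 (SE 0.235), -0.46 with it and -0.44 without DN 2 and DN 3. Its other arm, miR-1981-3p, had a log2FC of -0.41 without DN 2 and -0.18 with it.

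miR-455-3p, encoded in the fibrillar collagen gene Col27a1 and known from cartilage, was at 1365, 447, 3651, 1818, 1654 and 989.8 CPM in DN 1 to 6 and 1316, 946, 1021, 953, 1291 and 1405 in treated 1 to 6. Here too DN 3 was highest and DN 2 lowest, and the log2FC was -0.78 without DN 2, -0.52 with it and -0.36 without DN 2 and DN 3. miR-149-5p, of the glypican gene Gpc1, was at 309, 206, 348, 256, 293 and 184 CPM in DN 1 to 6 and 203, 218, 217, 218, 207 and 174 in treated 1 to 6. Treated libraries lay within a narrow range that held DN 2 and DN 6, with a log2FC of -0.49 without DN 2 and -0.37 with it. miR-185-3p, the minor arm of a Tango2 intron miRNA, was near the naming minimum of 10 CPM. It ranged over 9.79 to 20.1 CPM in the 5 DN libraries and 4.61 to 11.3 in treated ones, with 2.83 in DN 2 (-0.84 without DN 2, -0.57 with it). All 7 miRNAs of this group, miR-1843b-3p included, lay below the median of the 5 DN libraries in 6 of 6 treated libraries. These 7 were chosen by their p in this direction and from the same libraries, so that count gives no separate support. The adjusted p of each was 0.778.

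Higher without DN 2 were 2 members of the miR-183 cluster, which is expressed together in sensory organs and in several epithelia. miR-182-5p was at 222, 662, 243, 348, 215 and 323 CPM in DN 1 to 6 and 343, 377, 759, 424, 657 and 304 in treated 1 to 6. Treated 3 and 5 lay above the rest, DN 2 lay between them, and the other treated libraries overlapped with DN 4 and DN 6. Its log2FC was 0.76 without DN 2 (SE 0.261, 95% interval 0.20 to 1.33, adjusted p = 0.778) and 0.51 with it. miR-96-5p was at 59.9, 246, 41.9, 117, 59.6 and 109 CPM in DN 1 to 6 and 94.2, 119, 211, 148, 192 and 65.3 in treated 1 to 6, again with treated 3 and 5 the highest treated libraries, and its log2FC was 0.78 without DN 2 and 0.39 with it. miR-183-5p, the third member, had a log2FC of 0.48 and 0.15. With each further library left out, the log2FC of miR-182-5p without DN 2 lay between 0.58 and 0.92.

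Small differences without DN 2 were also found in the miR-17 seed group and for miR-199a-5p. miR-17-5p, of the growth-promoting miR-17-92 cluster, was at 798, 2041, 616, 735, 863 and 913 CPM in DN 1 to 6 and 1077, 870.0, 1017, 1045, 1077 and 933 in treated 1 to 6. DN 2 was highest, and of the other DN libraries only DN 6 lay inside the treated range. Its log2FC was 0.30 without DN 2 (SE 0.133, adjusted p = 0.778) and 0.013 with it. miR-20a-5p, its cluster neighbour with the same seed, was at 595 to 882 CPM in the 5 DN libraries, 1556 in DN 2 and 801 to 985 in treated ones (0.27 without DN 2, 0.079 with it). miR-199a-5p, a fibroblast and pericyte miRNA, was at 512, 2350, 532, 808, 702 and 836 CPM in DN 1 to 6 and 739, 889, 1240, 899.8, 891 and 823 in treated 1 to 6. DN 2 was the highest library, and its log2FC was 0.38 without DN 2 and -0.067 with it. miR-199b-5p had the same values in every library, so the pair is 1 measurement that the deposited counting did not resolve.

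miR-34a-5p, a p53-induced miRNA that restrains the cell cycle and SIRT1, was chosen after its values were seen, because it was the only name called under any alternative. It was at 617, 1427, 1339, 712, 726 and 526 CPM in DN 1 to 6 and 1083, 988, 1027, 1227, 1170 and 1076 in treated 1 to 6. All 6 treated libraries lay above DN 1, 4, 5 and 6 and below DN 2 and DN 3, as in the panels of single library levels. Its log2FC was 0.30 with all libraries (SE 0.250, adjusted p = 0.761) and 0.42 without DN 2 (SE 0.230, adjusted p = 0.778) by edgeR. Without DN 2 and DN 3 it was 0.73 (SE 0.125, edgeR adjusted p = 0.0417), 1 call of 485 names (0.206%). Limma-voom with sample weights gave 0.69 with all libraries (adjusted p = 0.042) and 0.66 without DN 2 (adjusted p = 0.072). DN 2 and DN 3 are also the 2 libraries with the highest miR-34a-5p, so the edgeR call is made with the highest DN values left out, and limma-voom gives each library its own weight. Among the edgeR fits that left out 1 further library beside DN 2, only that without DN 3 made a call. Its adjusted p is not corrected for the choice among these fits. The fit without DN 2 and DN 3 had groups that did not overlap for 1 name higher in treated kidneys (0.206%), miR-34a-5p, and 4 lower (0.825%), among them miR-1843b-3p and miR-1968-5p. Both had been named by their p from the same libraries, so this gives no separate support for them. Of 421 mouse miRNAs tested in that fit, 21 had an unadjusted edgeR p under 0.05. The other 2 of the 4 lower names were named after their values were seen. miR-203b-3p had a log2FC of -0.49 in this fit, -0.30 without DN 2 and -0.0073 with all libraries. A row named for human miR-378c had -0.97, -0.74 and -0.51.

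**Figure D4:**
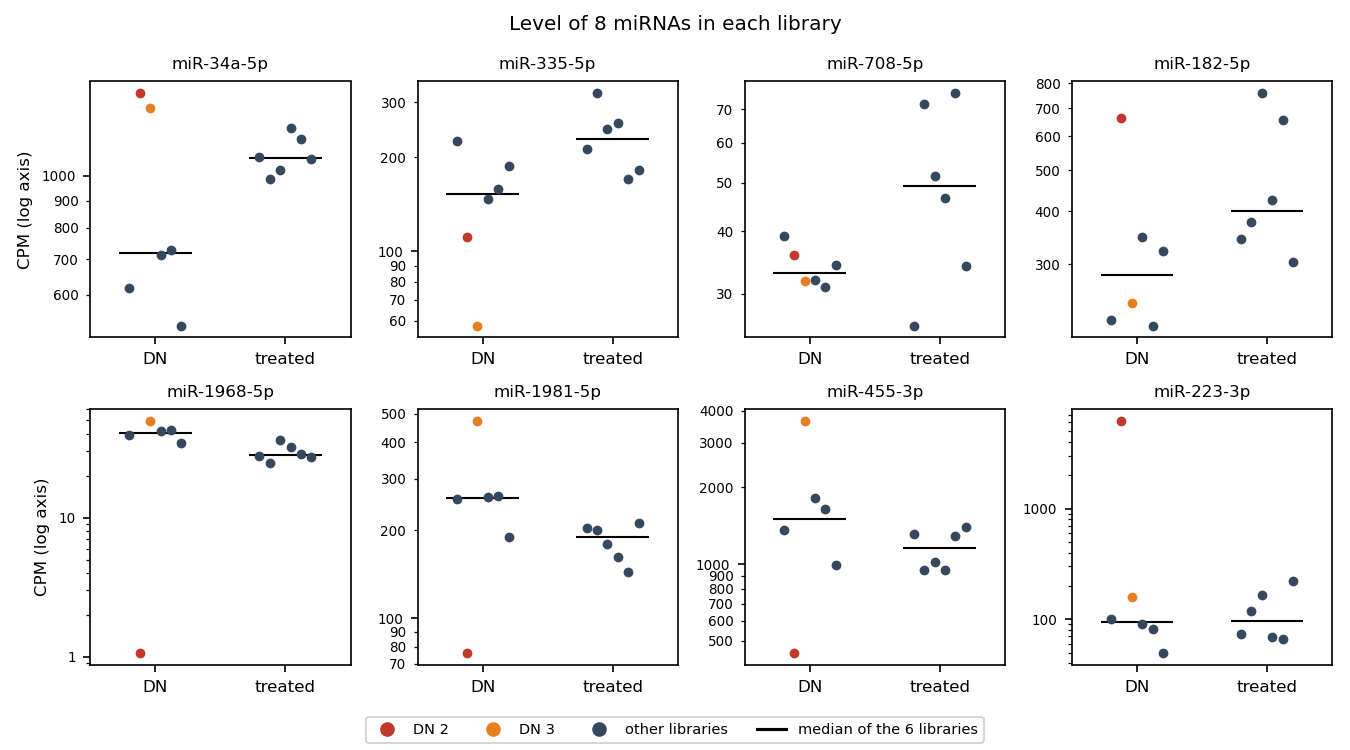
Level of 8 miRNAs in CPM (y axis, log, scaled per panel) in each DN and treated library, with DN 2 in red, DN 3 in orange and the median of each group as a line. For miR-34a-5p all treated libraries lie between DN 2 and DN 3 above and the other 4 DN libraries below, and for miR-223-3p DN 2 alone lies apart.

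The 5 most abundant miRNAs were miR-21a-5p, miR-143-3p and 3 of the miR-30 family, and each had groups that overlapped. miR-21a-5p, a miRNA that increases in kidney injury and fibrosis, was at 66261, 229158, 26286, 81126, 69849 and 69946 CPM in DN 1 to 6 and 81307, 69354, 86922, 73163, 43253 and 137352 in treated 1 to 6. DN 2 and treated 6 were the highest libraries and DN 3 the lowest. The log2FC was -0.14 (95% interval -1.03 to 0.74) and 0.36 without DN 2 (SE 0.301). miR-30a-5p, a miRNA of podocytes and tubules, was at 60550, 23655, 57735, 91283, 66512 and 91548 CPM in DN 1 to 6 and 65631, 82246, 103636, 93345, 108839 and 71569 in treated 1 to 6. DN 2 was the lowest, and the log2FC of 0.42 was 0.20 without it. miR-30e-5p had a log2FC of 0.52 (0.28 without DN 2), miR-30c-5p of 0.45 (0.22 without DN 2) and miR-143-3p, of smooth muscle, of 0.36 (0.25 without DN 2). Without DN 2 and DN 3 these 3 were at 0.13, 0.16 and 0.069.

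Kidney epithelial miRNAs were abundant in every library, DN 2 included, and the sign of the median of the list and of miR-192-5p changed with the libraries used and with the method. miR-192-5p, enriched in tubular epithelium, was at 31805, 4713, 13998, 40156, 34207 and 36585 CPM in DN 1 to 6 and 30235, 29298, 34407, 32268, 21361 and 31906 in treated 1 to 6. DN 2 and DN 3 were the lowest libraries, and the log2FC was 0.15 with all libraries, -0.11 without DN 2 and -0.0072 without DN 3. miR-10a-5p, from the HoxB locus, ranged over 24218 to 49261 and 37210 to 58355 CPM in DN and treated kidneys (log2FC 0.33, or 0.19 without DN 2). Of the 13 tested kidney-enriched miRNAs, 8 were higher with all libraries (median 0.15) and 5 without DN 2 (median -0.11). Limma-voom with all libraries gave 4 of 13 higher, median -0.084. The summed level of the list was 45648 CPM in DN 2, 71505 to 137341 in the other DN libraries and 108045 to 143588 in treated ones.

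The families and clusters are described by counts and medians, and each is read against the 40.6% of mouse miRNAs that were higher with all libraries and the 41% without DN 2. No member of any list was called in either fit. The let-7 and miR-98 family, which restrains growth and stem cell genes, had 0 of 9 higher (median log2FC -0.23) with all libraries and 0 of 9 (median -0.33) without DN 2, and its members ranged from -0.42 to -0.063 without DN 2. With let-7a-5p and let-7c-5p, which had the same values in every library, counted once, it had 0 of 8 higher (median -0.23) with all libraries and 0 of 8 (median -0.31) without DN 2. With DN 3 left out beside DN 2 the median over the 9 names was -0.061 and 2 of 9 were higher, and limma-voom gave 2 of 9 higher, median -0.10 with all libraries. The summed level of the family was 212290 CPM in DN 3, 112943 to 135572 in the other DN libraries and 106021 to 134490 in treated ones. let-7g-5p had a log2FC of -0.042 (-0.24 without DN 2) and let-7f-5p of -0.14 (-0.30 without DN 2). In let-7f-5p DN 2 was the lowest library at 17534 CPM and DN 3 the highest at 35058, against 18760 to 29500 in treated kidneys. The miR-30 5p arms had 5 of 5 higher (median log2FC 0.42) with all libraries and 4 of 5 (median 0.22) without DN 2. Their 3p arms had 5 of 6 higher (median log2FC 0.13) with all libraries and 2 of 6 (median -0.079) without DN 2, with miR-30a-3p at a log2FC of 0.19 (-0.043 without DN 2) and miR-30e-3p at 0.27 (0.021 without DN 2).

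Of the families tied to epithelial state and matrix, miR-200 members, which restrain Zeb1 and Zeb2, had 8 of 8 higher (median log2FC 0.23) with all libraries and 6 of 8 (median 0.084) without DN 2. miR-200a-3p had a log2FC of 0.44 (0.25 without DN 2) and miR-200b-3p of 0.23 (0.036 without DN 2). The miR-29 family, which restrains collagen genes, had 4 of 5 higher (median log2FC 0.039) with all libraries and 2 of 5 (median -0.029) without DN 2, and the all-library median was -0.095 when scaled by library size only. Its members include miR-29a-3p at 0.18 (0.074 without DN 2) and miR-29c-3p at 0.27 (0.064 without DN 2). Injury and fibrosis miRNAs had 1 of 13 higher (median log2FC -0.38) with all libraries and 10 of 13 (median 0.34) without DN 2. With miR-199a-5p and miR-199b-5p counted once they had 1 of 12 higher (median -0.38) with all libraries and 9 of 12 (median 0.27) without DN 2. Limma-voom, with DN 2 kept, gave 12 of 13 higher, median 0.30. Of these, miR-199a-3p, of the same clusters as miR-199a-5p, had 5130 CPM in DN 2 against 1512 to 1851 in DN 1 and 3 to 6 and 1798 to 2462 in treated kidneys (log2FC -0.16, or 0.20 without DN 2). DN 2 was also the library with the highest summed level of this list, at 243712 CPM, most of which was miR-21a-5p.

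The genomic clusters moved by different amounts when DN 2 was left out, as the plot of list members shows. The imprinted Dlk1-Dio3 cluster, active in development and in muscle and neural cells, had 1 of 15 higher (median log2FC -0.44) with all libraries and 7 of 15 (median -0.041) without DN 2, and 28 of its 43 members in the table did not pass the filter on low counts. Limma-voom gave 0 of 15 higher, median -0.29, with all libraries and 0 of 15 higher, median -0.35, without DN 2. DESeq2 gave medians of -0.50 and -0.025, so the smaller difference without DN 2 held for edgeR and DESeq2 and not for limma-voom. miR-127-3p was at 157, 444, 138, 161, 176 and 75.5 CPM in DN 1 to 6 and 70.5, 230.4, 246, 72.6, 86.8 and 149 in treated 1 to 6, with DN 2 highest and the other libraries overlapping (log2FC -0.43, or -0.041 without DN 2), and miR-434-3p had a log2FC of -0.88 (-0.25 without DN 2). The Sfmbt2 intron cluster, of rodent-specific miRNAs, had 3 of 20 members tested, of which 0 were higher with all libraries and 1 without DN 2, against 2 of 3 in both limma-voom fits. Its miR-669c-5p had a log2FC of -0.98 (-0.32 without DN 2) and its miR-467e-5p of -0.58 (0.35 without DN 2). The miR-17-92 cluster and its paralogs had 5 of 13 higher (median log2FC -0.022) with all libraries and 11 of 13 (median 0.11) without DN 2, and limma-voom with all libraries gave 12 of 13 higher, median 0.17. Its most abundant members were miR-93-5p (log2FC -0.046, or 0.070 without DN 2) and miR-25-3p (log2FC -0.022, or 0.0080 without DN 2). The cluster of miR-322 and miR-503 on the X chromosome had 9 of 11 higher (median log2FC 0.31) with all libraries and 8 of 11 (median 0.19) without DN 2, with miR-322-5p at 0.39 (0.27 without DN 2). Its summed level was lowest in DN 3 (1365 CPM) and DN 2 (1376 CPM), and without both the median was 0.069, with 10 of 11 higher. The miR-183 cluster had 3 of 3 higher (median log2FC 0.39) with all libraries and 3 of 3 (median 0.76) without DN 2. The miR-188 neighbours of the Clcn5 intron had 3 of 9 higher (median log2FC -0.10) with all libraries and 3 of 9 (median -0.17) without DN 2. Of these, miR-188-3p was at 0, 2.47, 1.99, 4.27, 3.27 and 1.85 CPM in DN 1 to 6 and 1.25, 3.63, 1.75, 1.44, 3.10 and 3.23 in treated 1 to 6, at most 4.27 CPM, and its log2FC was 0.037 with a 95% interval of -1.28 to 1.35. miR-532-5p was at -0.0084 (-0.084 without DN 2). miR-501-3p, at 1050 CPM in DN 3 and 203 to 491 in treated libraries, had a log2FC of -0.48 (-0.50 without DN 2), which was 0.073 without DN 2 and DN 3. With DN 3 left out beside DN 2, the medians of 3 of these clusters changed sign, to 0.028 for Dlk1-Dio3, 0.056 for Sfmbt2 and 0.010 for the miR-188 neighbours. That fit tested 18 Dlk1-Dio3 members and 4 Sfmbt2 members, so their medians are not over the same members as those above. Limma-voom changed the sign of 9 of the 21 list medians with all libraries and of 3 without DN 2.

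**Figure D5:**
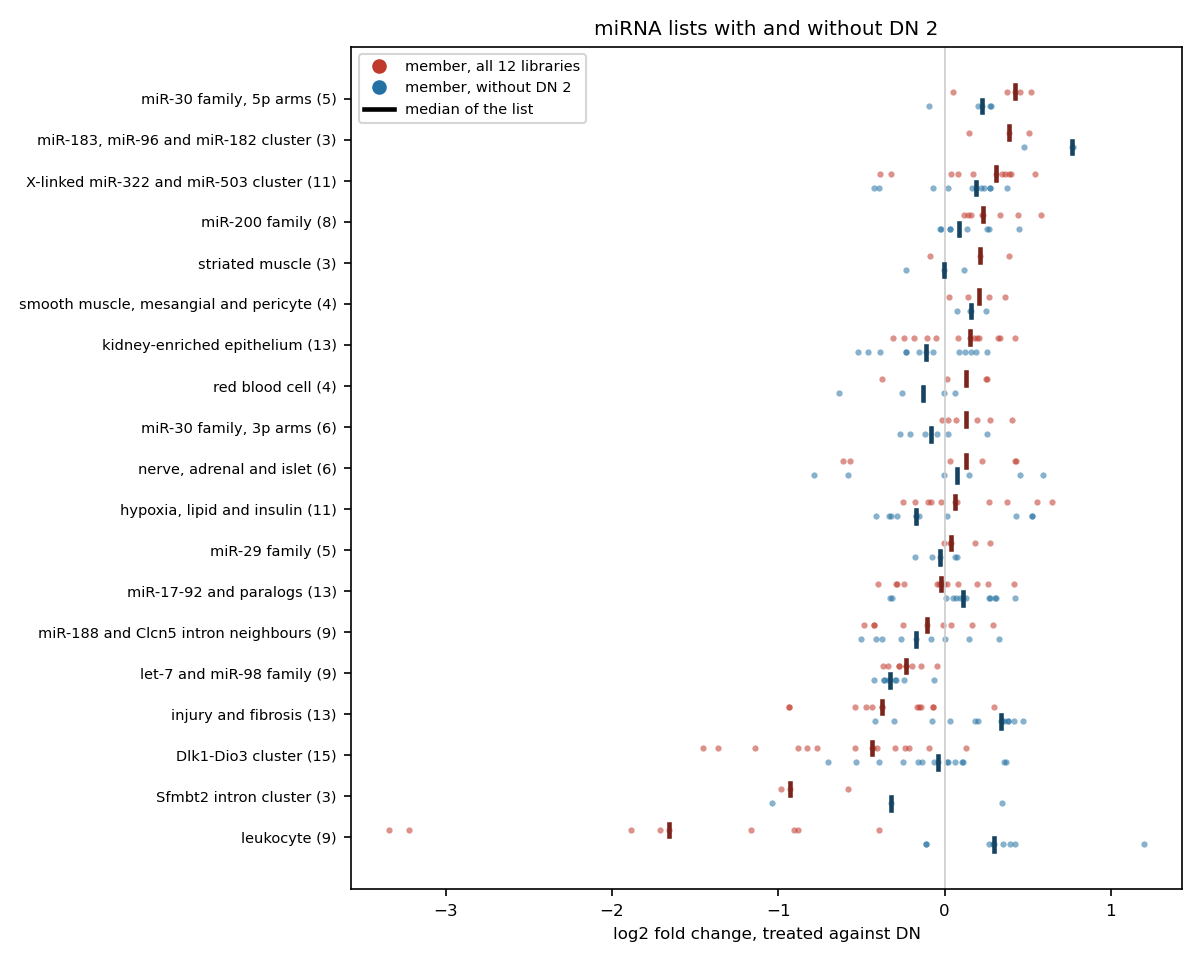
Log2 fold change of treated against DN kidneys (x axis) for the members tested with all 12 libraries in each list with at least 3 of them (y axis, number in brackets), with all 12 libraries (red) and without DN 2 (blue). Short vertical lines are list medians. The leukocyte median moves from -1.66 to 0.30 when DN 2 is left out, and the let-7 median stays below 0.

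Markers of other cell types and tissues gave these levels. Endothelial miR-126a-3p ranged over 6422 to 16072 CPM in DN, lowest in DN 2 and DN 3, and 11701 to 18201 in treated kidneys (log2FC 0.39, or 0.21 without DN 2), and miR-126a-5p had a log2FC of 0.34 (0.15 without DN 2). Without DN 2 and DN 3 the median of this pair was -0.016 and 1 of 2 was higher. Smooth muscle, mesangial and pericyte miRNAs had 4 of 4 higher (median log2FC 0.21) with all libraries and 4 of 4 (median 0.16) without DN 2, with miR-145a-5p at 0.027 (0.076 without DN 2). Their summed level was lowest in DN 3, at 25011 CPM, and highest in treated 3, at 66692. Red blood cell miR-451a was at 1349 to 3672 CPM in DN and 1247 to 5032 in treated libraries (log2FC 0.25, or 0.063 without DN 2), and miR-486a-5p had a log2FC of -0.38 (-0.63 without DN 2), which was -0.0055 without DN 3. The red blood cell list had 3 of 4 higher (median log2FC 0.13) with all libraries. Without DN 2 it had 1 of 5 higher (median -0.26), which was miR-451a. Limma-voom with all libraries gave 0 of 4 higher, median -0.27. Liver miR-122-5p was at 130.2, 111, 12.7, 15.5, 6.54 and 60.7 CPM in DN 1 to 6 and 9.22, 51.4, 8.77, 6.34, 10.1 and 33.7 in treated 1 to 6, so 3 DN and 2 treated libraries were above 30 CPM. Its log2FC was -1.49 (95% interval -3.09 to 0.10, unadjusted p = 0.0685) and -1.22 without DN 2. Striated muscle miRNAs summed to 53.1 to 136 CPM in DN and 62.9 to 149 in treated libraries, with miR-1a-3p at a log2FC of 0.21 (-0.0031 without DN 2) and miR-133a-3p at -0.086 (-0.23 without DN 2). The nerve, adrenal and islet miRNAs summed to 509 to 796 and 663 to 897 CPM, with miR-375-3p at 0.23 (0.15 without DN 2) and miR-7a-5p at 0.032 (-0.0026 without DN 2). This list had 4 of 6 higher (median log2FC 0.13) with all libraries and 3 of 6 (median 0.073) without DN 2. It also holds 2 miRNAs described above that went opposite ways, miR-9-5p (0.43, or 0.46 without DN 2) and miR-138-5p (-0.61, or -0.58 without DN 2). The part of these cell types in the differences above was not tested.

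Metabolic and hypoxia miRNAs had 6 of 11 higher (median log2FC 0.060) with all libraries and 4 of 11 (median -0.17) without DN 2, and the all-library median was -0.056 when scaled by library size only. The hypoxia miRNA miR-210-3p, named after its values were seen, went against that median, with a log2FC of 0.38 (0.53 without DN 2). Both arms of miR-335, described above, belong to this list and were also higher in both fits. miR-378a-3p, of the Ppargc1b gene, was at 4807 CPM in DN 2, 15701 to 18845 in the other DN libraries and 14217 to 18423 in treated ones, with a log2FC of 0.073 (-0.17 without DN 2). miR-103-3p, tied to insulin sensitivity, had -0.023 (-0.16 without DN 2). Grouped by seed from the RefSeq sequences, 55 tested miRNAs fell into 13 seed groups of at least 3 names. Without DN 2, all 9 names of the let-7 seed GAGGUAG (8 distinct measurements) were lower (7 of 9 without DN 3 as well), and all 6 of the miR-17 seed AAAGUGC (0.051 to 0.30) and all 3 of the miR-30 members shown above (0.20 to 0.28) were higher. miR-30b-5p and miR-30d-5p, the other 2 tested 5p arms of the miR-30 family, had no sequence among those grouped. They are therefore left out of that group whatever their seed, and their log2FC without DN 2 was 0.28 and -0.093. In the other 10 groups members lay on both sides of 0. Members of a seed group can share reads of similar sequence, so they are not independent. Of 118 hairpins with both arms tested, 32 had both arms higher, 52 both lower and 34 opposite arms without DN 2, against 36, 50 and 32 with all libraries.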

How the data were processed

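Small RNA was sequenced from mouse kidney. Per the labels' protocols, Trizol RNA and a TruSeq Small RNA kit were used on a HiSeq instrument, and adapter dimers, low-complexity reads, other RNA classes and repeats were removed with ACGT101-miR. Per the submitters' processing notes, the tools were Trimmomatic 0.32, BWA, SAMtools and edgeR. The sources used here do not give the genome build or miRBase release.

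The deposited raw columns hold estimated counts, of which 76.9% of values above 0 were whole. The deposited normalized columns hold a signal, in which each library's raw values are multiplied by a factor of 0.664 to 1.43, and were not used. The table had 1534 rows: 350 with no name, which held 0.0136% to 0.148% of a library's counts and were left out, 814 with a mouse name (735 names) and 370 named for other species. Of the mouse names, 53 stood on more than 1 row, with identical rows for 47, so a level of such a name is that of 1 row. The row with the largest sum over the 12 libraries was kept, and rounding changed no total by more than 0.00021%.

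Counts of all named rows were fitted in edgeR 4.0.16 (R 4.3.3) with the group as the only factor. filterByExpr (minimum count 10, minimum total 15) kept 465 names, 406 of them mouse, and 329 mouse names were not tested. TMM factors, the legacy quasi-likelihood test (2-sided), Benjamini-Hochberg adjustment over all names tested and a threshold of 0.05 were used, and all steps were repeated without DN 2. Levels are CPM with TMM factors from the 12 libraries. The prior count for log2 CPM was 2. Intervals are 95%, from the fit, and cover the spread between these libraries. All 30 same-group pairs differed by more than counting noise (chi-square per degree of freedom at least 52.6).

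Named were mouse miRNAs at a mean of at least 10 CPM that were called or, since fewer than 5 were called, the 7 of smallest p in each direction of each fit. Also named were the 5 most abundant, the 2 most abundant tested members of each of the 21 lists, miR-188-3p and miR-21a-5p. Members and lists were chosen with earlier results of these data known. Alternatives were other scaling factors and filters, DESeq2 1.42.0, limma-voom (limma 3.58.1), the replicate number as a block, a fit with control libraries, other treatments of repeated names, and each library left out.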

Additional observations from a re-analysis of the deposited data

Results flagged for a closer look

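In 27 of 136 groups of 6 libraries (68 named miRNAs in DN and in treated kidneys), 1 library lay far from the other 5. Its gap in log2 CPM to the nearest library, as a share of the range, exceeded Dixon's 95% critical value for 6 values. Chance gives this in about 1 in 20 groups that are independent and not chosen by their values. Many of these miRNAs were named by p-values from the same libraries, so that rate is no yardstick for the 27. DN 2 was the library that lay far in 20 of them. It was far above the other DN libraries for miR-146a-5p (0.774), miR-150-5p (0.8), miR-17-5p (0.672), miR-199a-3p (0.834), miR-199a-5p (0.679), miR-199b-5p (0.679), miR-223-3p (0.76), miR-342-3p (0.752), miR-434-3p (0.713), miR-467e-5p (0.642) and miR-93-5p (0.687), where the number is that share. It was far below them for let-7g-5p (0.747), miR-1968-5p (0.898), miR-1981-3p (0.72), miR-200b-3p (0.837), miR-30a-3p (0.788), miR-30a-5p (0.659), miR-30c-5p (0.711), miR-30e-3p (0.638) and miR-378a-3p (0.866). The 2 names miR-199a-5p and miR-199b-5p are 1 measurement.

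DN 3 was far above the other DN libraries for miR-375-3p (0.77), an endocrine miRNA, at 317 CPM. DN 1 was far below them for miR-188-3p (0.688), where it had 0 counts. Among treated libraries, treated 6 was far above the others for miR-146a-5p (0.693) and far below them for miR-149-5p (0.694) and miR-9-5p (0.644). Treated 3 was far below for miR-138-5p (0.878), at 6.32 CPM, and treated 5 for miR-192-5p (0.663), at 21361 CPM. Rows with no name, which no comparison uses, held up to 0.148% of the counts of a library, in DN 1.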

How the results depend on the processing

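Of the 10 alternatives other than left-out libraries, 9 called 0 names with all 12 libraries, and limma-voom called 1, miR-34a-5p. Without DN 2, all 10 called 0. Leaving out each further library called 0 names with all 12 and 0 to 1 without DN 2, where leaving out DN 3 as well gave the 1 call of miR-34a-5p. The replicate block called 0 names in both fits, with 1 and 5 names at an unadjusted p under 0.05. Libraries of one number did not deviate together (correlation of deviations -0.38 to 0.096 over 6 numbers, 0 of 6 treated libraries closest to their own number). Whether libraries of one number were prepared together was not tested. Among 715 values of single miRNAs under these alternatives, 675 kept their direction and side of the threshold, 39 reversed and 1 was newly called. With the replicate number as a block (replicate block), let-7g-5p (0.0043), miR-103-3p (0.0059), miR-146a-5p (0.19), miR-199a-3p (0.0020), miR-21a-5p (0.077) and miR-467e-5p (0.029) changed sign. With limma-voom, miR-133a-3p (0.23), miR-146a-5p (0.55), miR-150-5p (0.020), miR-155-5p (0.29), miR-188-3p (-0.23), miR-192-5p (-0.17), miR-199a-3p (0.20), miR-21a-5p (0.15), miR-223-3p (0.36), miR-25-3p (0.033), miR-342-3p (0.40), miR-378a-3p (-0.064), miR-451a (-0.030), miR-467e-5p (0.48), miR-532-5p (0.0017), miR-669c-5p (0.11), miR-7a-5p (-0.051) and miR-93-5p (0.062) changed sign. With RLE factors, miR-145a-5p (-0.015) and miR-7a-5p (-0.0059) changed sign. With library size only, miR-145a-5p (-0.13), miR-183-5p (-0.031), miR-188-3p (-0.071), miR-378a-3p (-0.056) and miR-7a-5p (-0.096) changed sign. With the filter of 10 CPM, miR-145a-5p (-0.031) and miR-7a-5p (-0.019) changed sign. With DESeq2, miR-145a-5p (-0.015) and miR-7a-5p (-0.0062) changed sign. With control libraries in the fit, miR-145a-5p (-0.0044), miR-188-3p (-0.019) and miR-7a-5p (-0.0078) changed sign. With no filter, miR-532-5p (0.0025) changed sign. None of these had been called, and the cause was not tested. With each library left out in turn, signs also changed in 21 results, with ranges of let-7g-5p -0.24 to 0.015, miR-103-3p -0.16 to 0.089, miR-133a-3p -0.23 to 0.10, miR-145a-5p -0.067 to 0.076, miR-146a-5p -1.37 to 1.20, miR-147-3p -3.62 to 0.30, miR-183-5p -0.0054 to 0.48, miR-188-3p -0.23 to 0.31, miR-192-5p -0.11 to 0.31, miR-199a-3p -0.23 to 0.20, miR-1a-3p -0.0031 to 0.41, miR-21a-5p -0.36 to 0.36, miR-223-3p -3.47 to 0.27, miR-25-3p -0.13 to 0.020, miR-30a-3p -0.043 to 0.29, miR-342-3p -1.08 to 0.35, miR-378a-3p -0.17 to 0.14, miR-467e-5p -0.76 to 0.35, miR-532-5p -0.087 to 0.021, miR-7a-5p -0.094 to 0.084 and miR-93-5p -0.16 to 0.070. Library size only moved the median log2FC over all names from -0.057 to -0.20, and no filter to -0.23. The median SE was 0.403 under 100 CPM and 0.245 from 100 CPM up, and the parts of depth and of spread between libraries in it were not tested.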
